A study of Mus musculus with 27 samples.

Results

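Cultured macrophage-like cells grown from mouse embryonic stem cells, the lines ESdM 20 and ESdM 22, were compared gene by gene with cultured cells labelled microglia. The comparison used 9 of the 27 arrays of the series, chosen by their titles: 3 for ESdM 20, 3 for ESdM 22 and 3 for microglia. All cells were from C57BL/6 mice, and the 5 other groups of the series (MF, BM-DC, CD8 T, astrocyte and neuron) served only to estimate the spread and to place single genes. Of these, astrocytes carry an age of day 3, and MF (bone marrow macrophages) and BM-DC (bone marrow dendritic cells) day 7. The microglia came from brain at an age given as day 3, while the ESdM cells had been cultured for more than 51 days and carry the cell type label ES cells. Age, origin and time in culture therefore cannot be told apart. The labels name no stimulus for any of the 3 groups, do not say how pure the microglia were, and do not say whether each line is a single clone. They also do not say whether replicates were separate cultures. The p-values reflect how far arrays scatter within all 8 groups of the series, not within these 9 arrays alone, and that scatter may be purely technical. Both ESdM lines were weighted equally, and a difference is the mean of the lines minus the mean of the microglia arrays.

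RNA was measured on Illumina bead arrays, in which each gene is read by short probes and the brightness of a probe is its intensity. Levels are log2 normalized intensities. Probes without signal lay near 4.22 on this scale, and the lowest detected value per array lay between 4.57 and 4.68. A gene was called higher or lower at a limma adjusted p below 0.05 and a log2 difference of at least 1. Median raw intensity was 91.6 to 95.6 and 15150 to 16642 probes were detected on the 9 arrays. ESdM 22 replicate 3 stood apart. Its root mean square log2 distance to the other arrays of its line was 0.390, against 0.151 to 0.263 for the other ESdM arrays and 0.164 to 0.185 for microglia. Results that turn on that array are given with and without it.

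Macrophages, including microglia as the resident macrophages of the brain, read cytokines through JAK kinases and STAT transcription factors. STAT proteins switch on SOCS family genes, whose products then damp the same receptors, so SOCS transcripts follow the signalling a cell has recently received. Interferons act through the same machinery, while NF-kB factors drive chemokine and adhesion genes after inflammatory signals.

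The cell labels were checked against defining markers. Of 18 tested microglia core genes, 8 were detected on all 3 microglia arrays and 9 on none. P2ry12, a purine receptor of brain microglia, stood at 4.28 in microglia and 4.27 in ESdM and was detected on none of the 9 arrays. Tmem119, a microglial membrane protein, and Cx3cr1, the fractalkine receptor, were detected on no microglia array but on 3 and 5 of 6 ESdM arrays, near the floor. The arrays labelled microglia thus lacked 3 defining microglia genes, and the label is used here as given. General macrophage genes were present in both. Of 20 tested macrophage lineage genes, 19 were detected on all microglia arrays and 17 on all ESdM arrays, and Adgre1, which encodes F4/80, stood at 10.66 in microglia and 10.88 in ESdM. The pluripotency gene Pou5f1, whose protein is Oct4, stood near the floor, at 4.43 to 4.94 on the ESdM arrays.

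Most genes differed little between the groups. Of 12814 genes tested, 89.7% differed by less than 0.5 on the log2 scale and the median difference was 0.01. The difference lay above 0 for 6873 genes and below 0 for 5941. In ESdM, 77 genes were called higher (0.601%) and 188 lower (1.47%), together 2.07% of the genes tested. The shares of 0.601% and 1.47% are the reference for every list count below. The falls were also larger, with 57 genes lower by at least 4-fold against 4 genes higher by as much. Of the 188 lower genes 48 belonged to interferon, guanylate binding protein and MHC class I lists, and 140 lay outside them. Without ESdM 22 replicate 3 the counts were 82 higher and 185 lower. Without background correction they were 20 and 85. The chip of each array was inferred from the number that opens its array name and is not a stated label. Microglia and both lines lay on each of 2 chips, and the counts were 49 higher and 133 lower within the chip with 1 microglia array, which is assumed to vary like the others, and 77 and 189 within the other. All 265 called genes had arrays that did not overlap between ESdM and microglia, where 10.9% of all tested genes were higher and 9.94% lower without overlap. In cultures measured in bulk, fewer cells with a transcript and less of it per cell cannot be told apart.

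**Figure D1:**
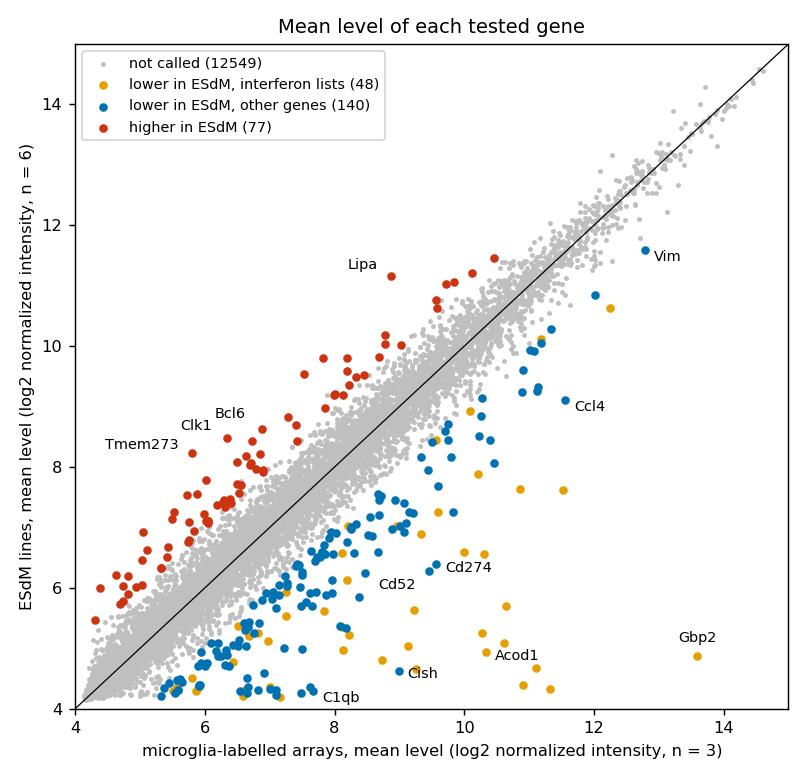
Mean level of each tested gene on the microglia arrays (x axis, n = 3) and on the arrays of both ESdM lines (y axis, n = 6), both as log2 normalized intensity. Each point is a gene, the line marks equal levels, and colours mark the 77 genes called higher and the 188 called lower, of which 48 belong to the interferon lists. The lower genes reach farther from the line than the higher ones.

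Promoter sequences are shown for 4 called genes, to set the letters of STAT and interferon motifs beside genes of those pathways that moved. They were taken from RefSeq (GRCm38.p6), a build that is not stated to be that of the array. Bcl6, which rose, Socs3 and Irf8, which fell, and Gbp2, the interferon gene with the largest fall, are each given as the 250 bases before a start site, 5′ to 3′ on the gene's strand. Capitals mark matches to TTCNNNGAA, the spacing bound by STAT proteins, and for Gbp2 a match to the interferon-stimulated response element, read on the opposite strand.
Bcl6, chr16:23981284-23981533, minus strand: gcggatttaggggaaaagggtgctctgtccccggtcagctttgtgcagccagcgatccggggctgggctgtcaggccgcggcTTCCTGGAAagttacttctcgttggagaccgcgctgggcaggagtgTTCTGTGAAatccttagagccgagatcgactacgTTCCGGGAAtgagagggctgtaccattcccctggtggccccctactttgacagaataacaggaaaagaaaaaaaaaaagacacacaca
Socs3, chr11:117969367-117969616, minus strand: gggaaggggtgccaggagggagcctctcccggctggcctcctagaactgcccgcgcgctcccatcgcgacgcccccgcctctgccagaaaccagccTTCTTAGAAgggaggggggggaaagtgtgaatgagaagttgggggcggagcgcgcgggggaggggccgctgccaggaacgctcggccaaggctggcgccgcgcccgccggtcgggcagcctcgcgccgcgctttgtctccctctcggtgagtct
Irf8, chr8:120736108-120736357, plus strand: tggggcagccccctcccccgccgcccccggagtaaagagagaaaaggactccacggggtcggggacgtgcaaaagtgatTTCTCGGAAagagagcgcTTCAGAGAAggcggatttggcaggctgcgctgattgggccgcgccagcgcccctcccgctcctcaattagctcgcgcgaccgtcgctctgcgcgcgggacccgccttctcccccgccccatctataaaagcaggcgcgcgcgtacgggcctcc
Gbp2, chr3:142620413-142620662, plus strand: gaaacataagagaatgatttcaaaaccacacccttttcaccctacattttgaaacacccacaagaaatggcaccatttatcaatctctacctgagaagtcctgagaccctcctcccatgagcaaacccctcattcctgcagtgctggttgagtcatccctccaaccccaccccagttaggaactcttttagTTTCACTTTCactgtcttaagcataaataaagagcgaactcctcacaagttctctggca

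The Bcl6 window held 3 STAT matches, that of Irf8 2 and that of Socs3 1. The windows of Cish and Cd274, looked up likewise, held none of the 5 motifs searched. The table gives Bcl6 and Irf8 another start each, whose window held 1 STAT match and the box CACGTGAC for Bcl6 and no match for Irf8. Of the 265 called genes, 208 had a promoter in the table. Shares are of genes with a promoter, counting a match at any start. The STAT letters, searched on both strands, were found in 7.38% of all tested genes and in 15.2% of genes called lower. They were in 12.3% of lower genes outside the interferon lists and in 3.51% of higher genes, or 2 of 57. The interferon element was found in 3.37% of all tested genes, in 43.2% of lower genes inside the interferon lists and in 9.65% of lower genes outside them. The letters GGGNNTTCC, a short form of the NF-kB site, were in 7.17% of all tested genes and in 12.3% of lower genes outside the interferon lists. The cAMP response element TGACGTCA and the TFEB-type box CACGTGAC were in 2.82% and 3.74% of all tested genes and in 0% and 2.65% of lower genes. Among higher genes they were in 1.75% and 3.51%, or 1 and 2 of 57. These shares describe letters in a window and are not binding sites.

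The JAK-STAT feedback genes Cish, Socs2 and Socs3 fell in ESdM, and the repressor Bcl6 rose. Of 23 tested STAT5 and cytokine feedback targets, 5 were called lower and 1 higher, and the median log2 difference was -0.32 against 0.01 over all tested genes. Without ESdM 22 replicate 3, 6 were lower and 1 higher. Over all tested genes 1.47% were called lower and 0.601% higher. Cish, a SOCS family inhibitor induced by STAT5, stood at 8.97, 9.06 and 8.93 on the microglia arrays, numbered in order of replicate here and below. It stood at 4.66, 4.49 and 4.62 in ESdM 20 and at 4.75, 4.58 and 4.68 in ESdM 22, where 3 of the 6 values counted as detected. The transcript was thus close to the floor on every ESdM array. The fall was 20.5-fold (log2 -4.36, SE 0.232, adjusted p = 2.48e-13), a size limited by signal near the floor. Socs2, which restrains growth hormone signalling, stood at 7.50, 7.41 and 7.58 in microglia and between 4.55 and 5.15 in ESdM (5.68-fold lower, log2 -2.51, SE 0.175, adjusted p = 5.77e-11). It was detected on 5 of 6 ESdM arrays.

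Socs3, the inhibitor induced by IL-6 family cytokines, stood at 9.49, 9.67 and 9.65 in microglia, at 7.61, 7.89 and 8.03 in ESdM 20 and at 7.78, 7.68 and 7.11 in ESdM 22. It fell 3.78-fold (log2 -1.92, SE 0.198, adjusted p = 9.15e-08) and was still clearly expressed in ESdM. Id1, a helix-loop-helix inhibitor and target of BMP signalling, fell 7.15-fold, from 8.12 to 8.24 in microglia to 5.10 to 5.54 in ESdM (adjusted p = 8.98e-13). Il1rn, the interleukin 1 receptor antagonist, fell 2.76-fold (log2 -1.46, SE 0.108, adjusted p = 1.6e-10). Socs1 differed by log2 -0.60 and was detected on 2 microglia arrays and on no ESdM array.

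Bcl6, a repressor that competes with STAT5 for DNA sites, moved the other way. It stood at 6.89, 6.85 and 6.90 in microglia, at 8.78, 8.80 and 8.61 in ESdM 20 and at 8.81, 8.65 and 8.10 in ESdM 22. The rise was 3.35-fold (log2 1.75, SE 0.209, adjusted p = 1.07e-06). Bcl6 was named from genes whose arrays did not overlap, so that separation was set by the choice. Bcl6 is read by 1 probe, and the rise was called under every alternative run. ESdM levels of Bcl6 lay near those of MF (8.26) and astrocytes (8.23). Pim1, a STAT-induced kinase, was at 4.70 to 4.81 in microglia and differed by 0.03.

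Of the kinases upstream, Jak2 and Tyk2 were chosen after their values were seen and do not stand for the family. Jak2, which serves the GM-CSF and interferon gamma receptors, fell 2.39-fold (log2 -1.26, SE 0.127, adjusted p = 6.34e-08). Tyk2, which serves the type I interferon receptor, fell 2.29-fold at its brightest probe, while its 2 other probes gave log2 -0.52 and -0.43 and were not called, and the mean of its probes, at -0.71, ended the call. The GM-CSF receptor chain Csf2ra went the opposite way without reaching the minimum fold (log2 0.65, adjusted p = 0.00957), and Csf2rb differed by -0.40 (adjusted p = 0.0857).

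**Figure D2:**
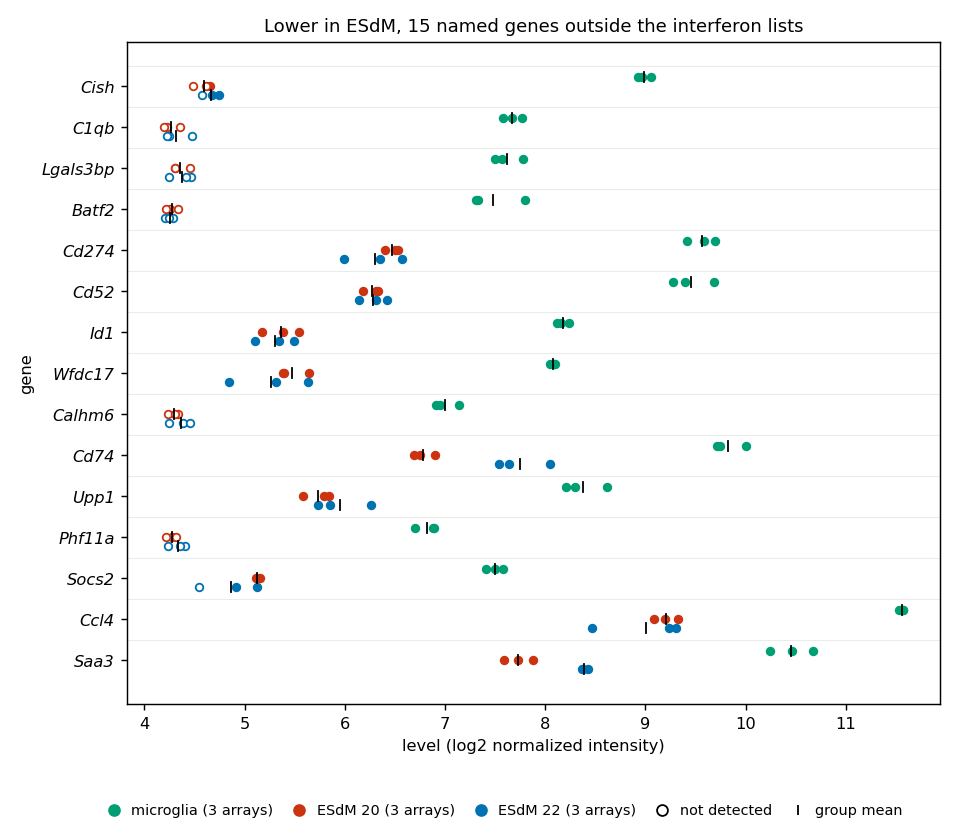
Levels of the 15 named genes with the largest falls outside the interferon lists, as log2 normalized intensity, with a point per array, a bar at each group mean and open points where the gene was not detected. Genes were picked among those without overlap, so microglia arrays lie to the right of all ESdM arrays for each. Both ESdM lines lie close together except for Cd74 and Saa3.

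Some NF-kB target genes and chemokines fell in ESdM, among them Icam1, Tnfaip3 and Ccl4. Of 21 tested NF-kB response genes 3 were called lower and none higher, with a median of -0.42, and 9 had an adjusted p below 0.05 in the lower direction at any fold, where 5.85% of all tested genes did. Without ESdM 22 replicate 3, 4 were called lower, and without background correction 1. With the minimum fold, 1.47% of all tested genes were called lower. Icam1, an adhesion molecule for leukocyte integrins, stood at 10.16, 10.54 and 10.05 in microglia and between 8.64 and 9.18 in ESdM, a 2.67-fold fall (log2 -1.42, SE 0.191, adjusted p = 6.64e-06). Tnfaip3, which encodes the feedback inhibitor A20, fell 2.33-fold (adjusted p = 1.67e-05). Its call was lost without background correction (log2 -0.75) and within the chip with 1 microglia array (log2 -1.20). Nfkbie, an inhibitor of NF-kB, fell 2.39-fold at its brightest probe, while its other probe gave log2 -0.04. The call of this inhibitor was lost with the mean of probes (log2 -0.65) and without background correction (log2 -0.55). Nfkbia, the best known inhibitor of this kind, differed by log2 -0.96 (adjusted p = 0.00552) and missed the minimum fold.

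Among 24 tested inflammatory cytokines and chemokines 6 were called lower and none higher, the same counts as without ESdM 22 replicate 3. The share called lower over all tested genes was 1.47%. Ccl4, a chemokine for monocytes and T cells, stood at 11.53, 11.57 and 11.57 in microglia, at 9.20, 9.09 and 9.33 in ESdM 20 and at 9.31, 9.24 and 8.47 in ESdM 22. The fall was 5.46-fold (log2 -2.45, SE 0.301, adjusted p = 1.64e-06). Ccl2, the main monocyte attractant, fell 4.00-fold from 7.78 to 7.99 in microglia to 5.40 to 6.27 in ESdM (adjusted p = 1.91e-07). The related chemokines Ccl3 and Ccl7 fell 2.47-fold and 2.43-fold, Ccl7 being detected on 4 of 6 ESdM arrays. Il15, a cytokine for natural killer cells, fell 2.65-fold (adjusted p = 9.15e-08). Tnf differed by log2 -0.74 (adjusted p = 0.0746), and Il1b and Il6 lay near the floor in both groups, at 4.41 to 5.08 for Il1b and at means of 4.38 and 4.40 for Il6.

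Csf1, the growth factor on which macrophages depend, fell 3.27-fold, from 7.59, 7.48 and 7.79 in microglia to 6.16, 5.99 and 6.39 in ESdM 20 and 5.83, 6.02 and 5.08 in ESdM 22 (adjusted p = 1.19e-07). Its receptor gene Csf1r stood at 8.69 to 9.33 in microglia and at 9.74 to 10.32 in ESdM, with no overlap, but the adjusted p of 0.0841 missed the threshold (log2 1.00, SE 0.37). Of 27 chemokine and cytokine receptor genes 1 was called lower, Ccrl2, where 1.47% of all tested genes were. Ccrl2, an atypical chemokine receptor, stood at 5.40 to 5.78 in microglia and was detected on 1 of 6 ESdM arrays, at 4.74. Its call was lost with median scaling (log2 -0.94).

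Other ligands and receptors of inflammatory signalling, chosen after their values were seen, fell too. The TNF family members Tnfsf13b, a B cell survival factor also called BAFF, and Tnfsf14, called LIGHT, fell 3.88-fold and 3.47-fold, and 2 of 11 tested TNF ligands were called lower. Tnfsf13b stood at 7.53, 7.79 and 7.64 in microglia and between 5.59 and 5.93 in ESdM. Hcar2, a receptor for nicotinic acid and ketone bodies, stood at 8.50, 8.82 and 8.70 in microglia and between 6.35 and 6.83 in ESdM (4.25-fold lower, adjusted p = 5.16e-12). It was at 9.95 in BM-DC and at 4.48 or below in the other 4 comparison groups. Nod1, a sensor of bacterial cell wall peptides, fell 2.82-fold. Tnfsfm13, annotated as a fused TNF ligand transcript, rose 3.39-fold at its brightest probe, while its other probe gave log2 -0.01.

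Toll-like receptors and their adaptors did not share this direction. None of 21 tested genes was called, and 13 of them were higher in ESdM and 8 lower, with 6 at an adjusted p below 0.05 in the higher direction, where 6.35% of all tested genes were, and 2 in the lower. The largest differences were log2 0.90 for Cd180, a receptor related to Tlr4 (adjusted p = 0.000789), and 0.89 for Tlr1, a receptor for bacterial lipopeptides (adjusted p = 0.000246). Both missed the minimum fold.

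**Figure D3:**
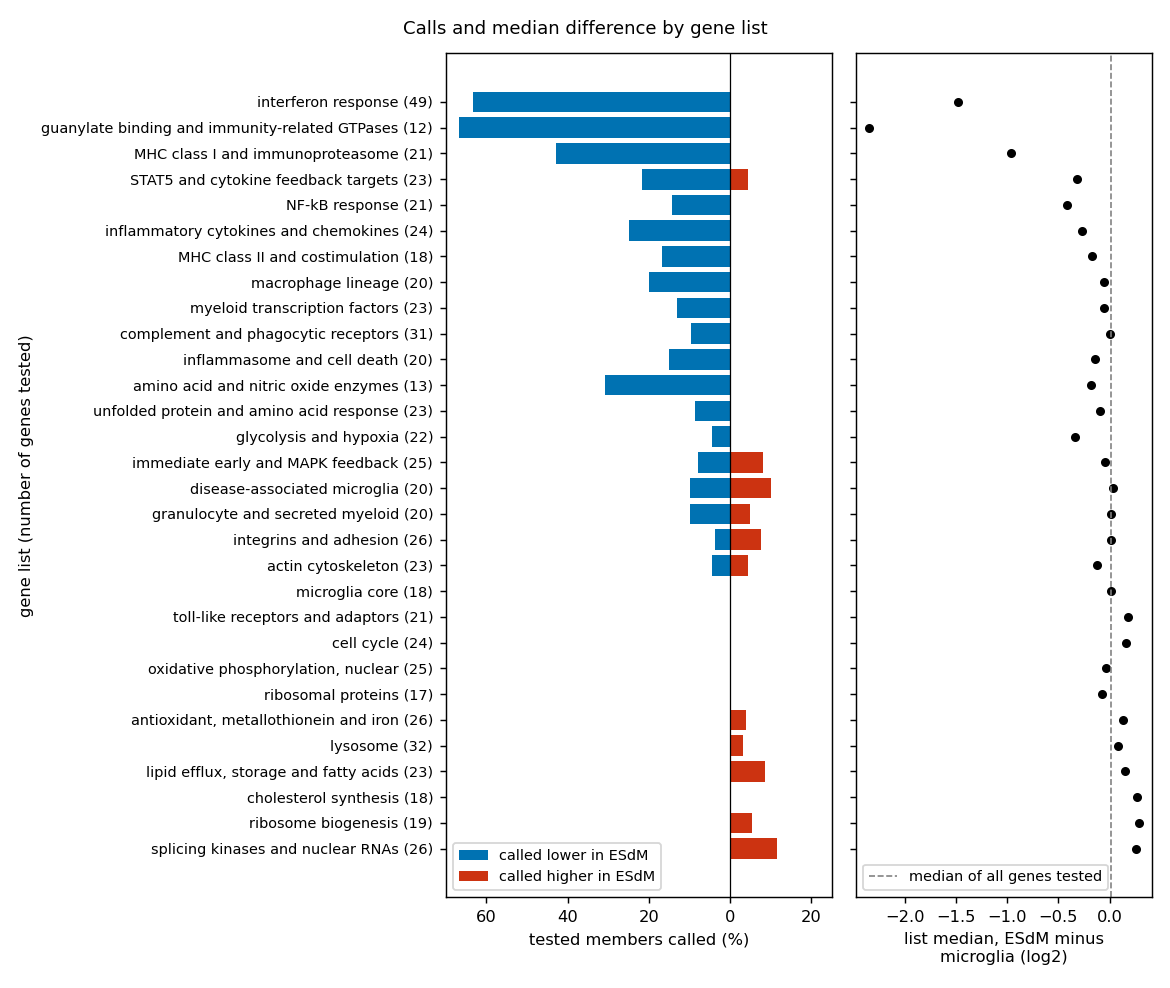
Share of tested members called lower (blue, to the left) or higher (red, to the right) in ESdM for 30 gene lists, with the number tested in brackets, and at right the median log2 difference of each list. The dashed line is the median of all genes tested, 0.01, and the interferon-related lists lie farthest to the left of it.

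Cd274, Cd40 and Cd74, genes of T cell contact and antigen presentation, fell in ESdM. Of 18 tested MHC class II and costimulatory genes 3 were called lower and none higher, with and without ESdM 22 replicate 3. Over all tested genes 1.47% were called lower and 0.601% higher. Cd274, which encodes the checkpoint ligand PD-L1, stood at 9.59, 9.70 and 9.42 in microglia, at 6.40, 6.50 and 6.53 in ESdM 20 and at 6.57, 6.35 and 5.99 in ESdM 22. It fell 9.04-fold (log2 -3.18, SE 0.132, adjusted p = 1.57e-15). Cd40, a costimulatory receptor of the TNF receptor family, fell 4.44-fold, from 8.95 to 9.23 in microglia to 6.39 to 7.14 in ESdM (adjusted p = 6.39e-11). Its mean level was 6.84 in BM-DC and 5.48 in MF.

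Cd74, the invariant chain that guides MHC class II, stood at 9.75, 10 and 9.72 in microglia, at 6.69, 6.75 and 6.90 in ESdM 20 and at 7.54, 7.64 and 8.05 in ESdM 22. Both lines lay below microglia, by log2 -3.04 and -2.07. All 3 probes of the gene were called lower, and the fall was 5.89-fold (adjusted p = 1.87e-05). Within the chip with 1 microglia array its adjusted p was 0.0534, at log2 -2.61. Slamf7, an activation receptor of the dendritic cell list, fell at least 1.95-fold and was detected on no ESdM array. That list had 2 of 15 tested genes lower, Cd40 and Slamf7. A receptor for lipid antigens, Cd1d1, chosen after its values were seen, rose 2.88-fold, from 4.93 to 5.28 in microglia to 6.40 to 6.86 in ESdM (adjusted p = 7.91e-08).

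Some macrophage genes fell, C1qb farthest. Of 20 tested macrophage lineage genes 4 were called lower and none higher, and of 31 complement and phagocytic receptor genes 3 were called lower. The share called lower over all tested genes was 1.47%. C1qb, a chain of the complement initiator C1q, stood at 7.58, 7.77 and 7.67 in microglia and was detected on none of the 6 ESdM arrays, a fall of at least 8.29-fold (adjusted p = 4.61e-07). C1qc, another chain, was at 5.80 to 6.06 in microglia and undetected in ESdM, at least 2.45-fold lower (adjusted p = 0.00733), while C1qa was undetected in both groups. For comparison C1qb stood at 12.09 in MF and 10.53 in astrocyte cultures. Mpeg1, a pore-forming protein of macrophages, fell 3.89-fold at its brightest probe (adjusted p = 0.00329), with its other probe at log2 -0.19, and Aif1, which encodes Iba1, fell 2.33-fold (adjusted p = 8.57e-05). Clec4e, a receptor for fungal and mycobacterial lipids, fell 2.58-fold and was detected on 4 of 6 ESdM arrays. Within the chip with 1 microglia array, 1 of the 4 macrophage lineage calls was kept, that of C1qb. The log2 differences there were -1.78 for Mpeg1, -1.45 for C1qc and -1.02 for Aif1. The calls of Mpeg1 and C1qc were also lost within the other chip, at log2 -1.96 and -1.62, against -1.96 and -1.54 with both chips. That of C1qc was lost with median scaling too (log2 -1.30, adjusted p = 0.117). That of Aif1 was lost with the mean of its probes (log2 -0.93).

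Most transcription factors of myeloid cells were not called. Of 23 tested, 3 were called lower and none higher, where 1.47% of all tested genes were called lower. Below 0 lay 16 of the 23, with a median of -0.05. At any fold, 6 had an adjusted p below 0.05 in the lower direction, where 5.85% of all tested genes did, and none in the higher. Irf8, a factor required for microglia and monocytes and itself induced by interferon gamma, stood at 8.94, 9.42 and 8.83 in microglia, at 7.31, 7.39 and 7.75 in ESdM 20 and at 7.01, 7.56 and 7.38 in ESdM 22. It fell 3.17-fold (log2 -1.67, SE 0.252, adjusted p = 3.43e-05) and kept this call under every alternative run. Klf4, a factor of both macrophages and stem cells, fell 2.64-fold (log2 -1.40, adjusted p = 0.00923). That call was lost within each chip, at log2 -1.33 and -1.38, and in ESdM 20 alone (log2 -1.30, adjusted p = 0.0601). Spi1, which encodes the lineage factor PU.1, differed by log2 0.11. Batf2, a partner of Irf factors known to be induced by interferon gamma, fell at least 7.26-fold, from 7.31, 7.80 and 7.33 in microglia to no detection in ESdM (adjusted p = 1.55e-17). No comparison group had Batf2 above a mean of 4.77.

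Among other surface and secreted immune genes, Cd52, a small lymphocyte and myeloid glycoprotein, fell 9.02-fold, from 9.40, 9.69 and 9.28 in microglia to 6.14 to 6.42 in ESdM (log2 -3.17, SE 0.14, adjusted p = 5.54e-15). Its other probe was lower by 1.86 and was called too. Lgals3bp, a secreted galectin ligand, stood at 7.50 to 7.78 in microglia and was detected on no ESdM array (at least 7.97-fold lower, adjusted p = 4.36e-12). Wfdc17, an inhibitor secreted by activated macrophages, fell 6.56-fold and Saa3, an acute-phase protein, 5.26-fold. Saa3 stood at 10.24, 10.67 and 10.46 in microglia, at 7.73, 7.59 and 7.88 in ESdM 20 and at 8.38, 8.43 and 8.37 in ESdM 22. Lat2, an adaptor of immune receptors chosen after its values were seen, fell 3.97-fold and was called lower at both probes. Calhm6 and Phf11a, both known interferon-induced genes that were not on the lists used here, fell at least 5.20-fold and 4.60-fold. Ly6c1, a monocyte and endothelial surface antigen, fell at least 4.07-fold.

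Haptoglobin went the other way. Hp, which binds free haemoglobin and is stored in granulocytes, stood at 7.82, 7.75 and 7.90 in microglia, at 9.64, 9.57 and 9.46 in ESdM 20 and at 9.94, 9.78 and 10.41 in ESdM 22. All 3 probes of Hp were called higher, and the rise was 3.93-fold (log2 1.97, SE 0.13, adjusted p = 1.85e-11). In the other groups Hp was at most 5.90, in BM-DC. Of 20 tested granulocyte and secreted myeloid genes 1 was thus higher and 2 lower, with 13 members detected on no microglia array and 12 on no ESdM array. The B cell receptor partner Cd72, chosen after its values were seen, rose 2.21-fold.

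Acod1 and Ido1, metabolic enzymes of activated macrophages, fell in ESdM. Of 13 tested amino acid and nitric oxide genes 4 were called lower and none higher, where 1.47% of all tested genes were called lower. Acod1, which makes itaconate, stood at 10.32, 10.55 and 10.15 in microglia, at 5.10, 5.32 and 5.16 in ESdM 20 and at 4.81, 4.90 and 4.32 in ESdM 22, where the last value was not detected. It fell 42.4-fold at its brightest probe (adjusted p = 1.69e-14) and by 4.78 on the log2 scale at the other, and it also stands on the interferon list. Ido1, which degrades tryptophan, stood at 6.82 to 7.06 in microglia and 4.62 to 4.78 in ESdM 22 (log2 -2.20 for that line) and was not detected on any ESdM 20 array. Ass1, which recycles citrulline for arginine and nitric oxide synthesis, fell 2.17-fold (adjusted p = 0.000473). Within the chip with 1 microglia array that call was lost, at log2 -1.04. Gch1, which supplies the nitric oxide synthase cofactor, fell 2.23-fold at its brightest probe, with log2 -0.12 at the other. Upp1, a uridine salvage enzyme, fell 5.78-fold and all 3 of its probes were called (adjusted p = 7.93e-14). Microglia had it at 8.21 to 8.62 and ESdM at 5.58 to 6.26.

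Among programmed cell death genes Casp4 and Mlkl fell. Of 20 tested, 3 were called lower and none higher, and 2 without ESdM 22 replicate 3. The share called lower over all tested genes was 1.47%. Casp4, the sensor of cytosolic endotoxin known as caspase 11, stood at 9.06, 9.27 and 9.12 in microglia and between 7.02 and 7.49 in ESdM, a 3.70-fold fall (adjusted p = 3.81e-11). Mlkl, which executes necroptosis, fell 3.11-fold, from 9.68 to 9.91 to 8.02 to 8.27 (adjusted p = 7.52e-11). Bcl2, which blocks apoptosis, fell 2.12-fold at 1 of its 6 probes, a call lost without ESdM 22 replicate 3 (log2 -0.95) and without microglia replicate 2 (log2 -0.99). Fas, the death receptor, chosen after its values were seen, was detected on no ESdM array at its brightest probe and was at least 2.45-fold lower there, but its 3 other probes gave log2 -0.61 to 0.06. The nucleases Samhd1 and Trex1, chosen likewise and known to be interferon-induced, fell 3.66-fold and 3.31-fold.

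Genes higher in ESdM included the lysosomal acid lipase and several genes of endosomes and lysosomes, without a shift of the whole compartment. Of 32 tested lysosome genes only Lipa was called, with and without ESdM 22 replicate 3, and the list median was 0.08. Lipa, which frees cholesterol and fatty acids from lipoproteins, stood at 8.56, 9.07 and 8.99 in microglia, at 10.85, 10.76 and 11.26 in ESdM 20 and at 11.66, 11.05 and 11.34 in ESdM 22. The rise was 4.87-fold (log2 2.28, SE 0.255, adjusted p = 3.28e-07), its other probe rose by 2.14, and the call held under every alternative run. MF had more Lipa still, at 13.59. In contrast Lamp1, a lysosomal membrane protein, differed by log2 0.32 (adjusted p = 0.0793) and the protease gene Ctsd by 0.08.

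The ion channels of endosomes and lysosomes Tpcn1 and Tpcn2, chosen after their values were seen, rose 2.48-fold and 2.14-fold. Tpcn1 stood at 9.58, 9.74 and 9.82 in microglia and between 10.70 and 11.30 in ESdM (adjusted p = 1.67e-06), but its 2 other probes gave only 0.31 and 0.55. The call of Tpcn2 was lost without microglia replicate 2 (log2 0.99). Creg1, a lysosomal glycoprotein, rose 2.39-fold, from 8.76 to 8.80 in microglia to 9.70 to 10.66 in ESdM (adjusted p = 5.93e-05).

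**Figure D4:**
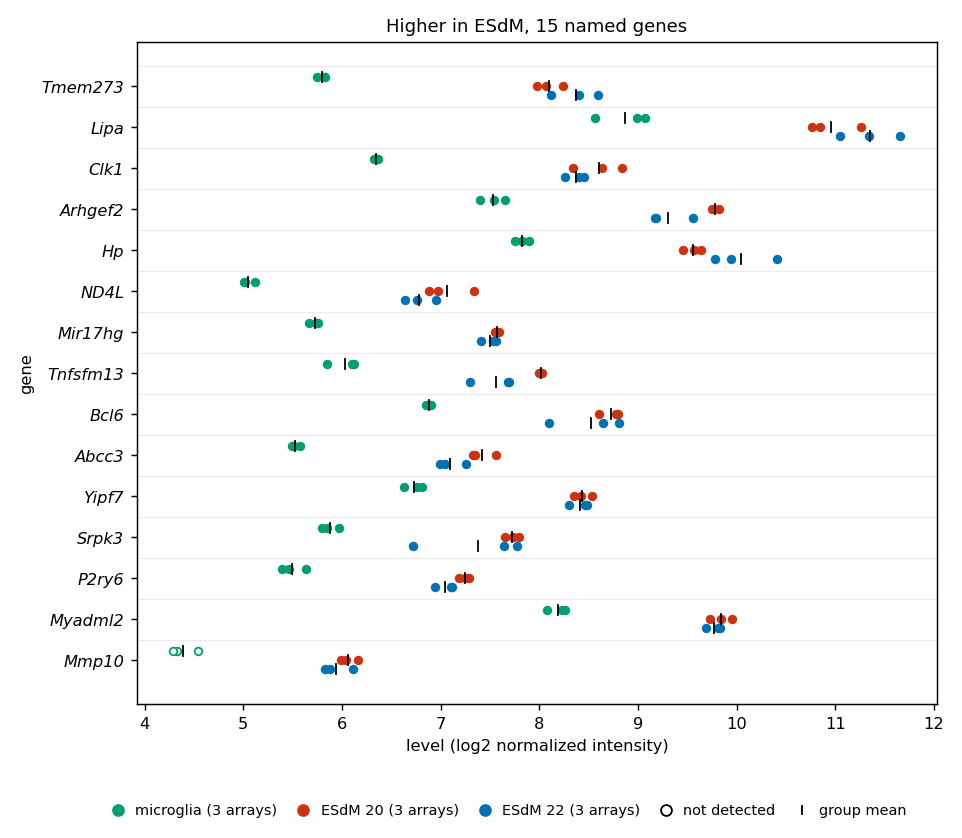
Levels of the 15 named genes with the largest rises in ESdM, as log2 normalized intensity, with a point per array, a bar at each group mean and open points where the gene was not detected. Genes were picked among those without overlap, so all 6 ESdM arrays lie to the right of the 3 microglia arrays for each. The levels mostly differ less than for the genes that fell.

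Apoe and Srebf1 rose among lipid genes, most of which were not called. Of 23 tested genes of lipid efflux, storage and fatty acids 2 were called higher and none lower, against 0.601% and 1.47% of all tested genes. Above 0 lay 16 of the 23, where 6873 of all 12814 tested genes did. Apoe, the main lipid carrier of brain and macrophages, stood at 9.57, 9.59 and 9.52 in microglia, at 10.80, 10.66 and 10.53 in ESdM 20 and at 10.55, 10.66 and 11.38 in ESdM 22 (2.31-fold higher, log2 1.21, SE 0.25, adjusted p = 0.0014). Within the chip with 1 microglia array the call of Apoe was lost, at log2 1.07. Srebf1, the regulator of fatty acid synthesis, rose 2.21-fold, by 1.42 in ESdM 20 and by 0.87 in ESdM 22, so the line ESdM 22 alone missed the minimum fold. Apoc1, another apolipoprotein, was undetected in microglia, at 4.77 to 4.93 in ESdM 20 and at 5.25 to 5.63 in ESdM 22. None of 18 tested cholesterol synthesis genes was called, yet 16 lay above 0, with a median of 0.27. The adjusted p was below 0.05 in the higher direction for 4 of the 18, where it was for 6.35% of all tested genes. Cyp51 and Hsd17b7, both enzymes of sterol synthesis, led with log2 1.00 and 0.82, and Cyp51 fell just short of the minimum fold.

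Iron uptake and transporters included further rises. Tfrc, the transferrin receptor, stood at 9.99, 9.64 and 9.88 in microglia and between 10.95 and 11.21 in ESdM, a 2.35-fold rise (log2 1.23, SE 0.14, adjusted p = 4.66e-07), and its other probe rose by 1.40. It was the 1 call among 26 tested antioxidant, metallothionein and iron genes. Of 35 tested ABC transporters, a family grouped after its values were seen, 3 were called higher and none lower. The share called higher over all tested genes was 0.601%. Abcc3, an exporter of organic anions, rose 3.32-fold from 5.49 to 5.57 in microglia to 6.99 to 7.56 in ESdM (adjusted p = 9.15e-08). Abcb6, a porphyrin transporter, rose 2.29-fold and Abca9 2.58-fold, both lost within the chip with 1 microglia array (adjusted p = 0.103 and 0.0659). P2ry6, a receptor for uridine diphosphate that drives phagocytosis in microglia, rose 3.14-fold, from 5.63, 5.39 and 5.46 to 6.94 to 7.29 in ESdM. MF had it at 11.44, and it was the only call among 13 tested purinergic genes.

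Growth factor genes linked to alternative activation or to disease-associated microglia were mixed. Igf1, a growth factor released by microglia, stood at 9.66, 9.51 and 9.57 in microglia, at 10.45, 10.60 and 10.66 in ESdM 20 and at 10.43, 10.49 and 11.19 in ESdM 22. It rose 2.08-fold (adjusted p = 3.98e-05) and by log2 0.94 without ESdM 22 replicate 3, which ends the call. Tgm2, a crosslinking enzyme, rose 2.05-fold (adjusted p = 0.0408), and this call was lost when any single array was left out. Igf1 and Tgm2 were the 2 calls among 12 tested alternative activation genes, of which none remained without ESdM 22 replicate 3. The disease-associated list of 20 tested genes had Apoe and Igf1 higher and Cd52 and Csf1 lower, and Trem2, the lipid receptor of that state, differed by 0.71 (adjusted p = 3.27e-05).

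Clk1, Mir17hg and Neat1 rose in ESdM. Of 26 tested splicing kinases and nuclear RNAs 3 were called higher and none lower, and the median was 0.26. The share called higher over all tested genes was 0.601%. Above 0 lay 22 of the 26, where 6873 of all 12814 tested genes did. Without ESdM 22 replicate 3, 4 of the 26 were called higher. Clk1, a kinase of splicing factors, stood at 6.32, 6.35 and 6.36 in microglia, at 8.84, 8.64 and 8.34 in ESdM 20 and at 8.45, 8.26 and 8.40 in ESdM 22. The 4.41-fold rise (log2 2.14, SE 0.203, adjusted p = 1.93e-08) was called under every alternative run. Clk4, its close relative, differed by 0.89 with an adjusted p below 0.05. Neat1, the RNA scaffold of paraspeckles, rose 2.24-fold (adjusted p = 0.00531). It was no longer called without microglia replicate 3 (log2 0.98, adjusted p = 0.061) and within either chip (log2 1.25 and 1.07). Hnrnpdl, an RNA-binding protein, and the small nucleolar RNA Snora65, both chosen after their values were seen, rose 2.18-fold and 2.09-fold.

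Mir17hg, the primary transcript of the miR-17-92 cluster, stood at 5.74, 5.67 and 5.76 in microglia, at 7.57, 7.55 and 7.59 in ESdM 20 and at 7.53, 7.41 and 7.56 in ESdM 22. It rose 3.50-fold (log2 1.81, SE 0.156, adjusted p = 3.28e-09), and the 6 ESdM arrays lay between 7.41 and 7.59. Its mean in CD8 T cells was 9.33. The array measured the host transcript and not the mature miRNAs. The mature sequences that this transcript encodes are shown to tell apart the families that would be read from it, with the seed (bases 2 to 8) in capitals, from RefSeq (GRCm38.p6, chromosome 14).
miR-17-5p: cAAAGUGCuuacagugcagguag
miR-20a-5p: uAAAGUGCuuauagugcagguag
miR-18a-5p: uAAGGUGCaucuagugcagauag
miR-19a-3p: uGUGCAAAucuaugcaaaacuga
miR-19b-3p: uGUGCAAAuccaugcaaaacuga
miR-92a-3p: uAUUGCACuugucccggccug
The 6 miRNAs fall into 4 seed groups, with 2 sharing AAAGUGC and 2 sharing GUGCAAA.

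Immediate early genes did not move together. Of 25 tested genes of this kind 2 were called higher and 2 lower, and none of these 4 calls was kept within the chip with 1 microglia array. Fos, a subunit of AP-1, rose 2.93-fold, from 7.26, 7.06 and 7.51 in microglia to 9.13, 9.17 and 9.24 in ESdM 20 and 8.84, 8.71 and 7.88 in ESdM 22. Dusp1, a phosphatase that ends MAP kinase signals, rose by 1.65 in ESdM 20 and 0.76 in ESdM 22 (2.31-fold, adjusted p = 5.52e-05). Ier3, a survival gene induced by NF-kB, fell 2.10-fold along with Klf4.

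Secreted and adhesion genes gave single calls rather than a common direction. Of 26 tested integrin and adhesion genes 2 were called higher and 1 lower, and 1 and 1 without ESdM 22 replicate 3. Icam2, an integrin ligand, was at 4.61 to 4.67 in microglia and 5.85 to 6.47 in ESdM (2.99-fold higher, adjusted p = 1.57e-10), while Icam1 fell. In microglia Icam2 lay at the floor and was undetected on replicate 3, and its call was lost without background correction (log2 0.54). Itgb7, an integrin chain for homing to the gut, rose 2.18-fold, to 8.96 to 9.34 on 5 ESdM arrays and 10.19 on ESdM 22 replicate 3, and its call was lost without that array (log2 0.92). Mmp10, a matrix protease, was undetected in microglia and at 5.83 to 6.16 in ESdM, at least 2.56-fold higher (adjusted p = 2.3e-09). Plaur, the urokinase receptor, fell 2.10-fold, a call lost without microglia replicate 1 (log2 -0.99). Furin, a protein convertase chosen after its values were seen, fell 3.12-fold.

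Of 23 tested actin cytoskeleton genes 1 was called higher and 1 lower. Acta2, smooth muscle actin, rose 2.69-fold at its brightest probe, from 4.89 to 5.11 in microglia to 6.19 to 6.61 in ESdM, while 3 other probes gave 0.00 to 0.19. Vim, the intermediate filament vimentin, fell 2.30-fold at its brightest probe, from 12.71 to 12.92 to 11.22 to 11.84, while its other probe gave 0.02. Zyx, a focal adhesion protein chosen after its values were seen, fell 2.24-fold with 1 probe (adjusted p = 2.47e-08). Arhgef2, an exchange factor for RhoA on microtubules, rose 4.04-fold at 1 probe, while its 3 other probes gave -0.05 to 0.16. Another probe also missed the call for Mlkl (-0.88), Clec4e (-0.80), Ddit3 (-0.78), Furin (-0.63), Tgm2 (-0.15) and Snora65 (0.53), and both others did for Abca9 (0.60 and 0.87) and Hnrnpdl (0.09 and 0.79). For Casp4, Cd40, Trex1, Tnfsf13b and Tnfsf14, at least 1 further probe was called lower, and the least moved gave -0.07, -0.18, 0.14, -0.30 and -0.30. Where probes differ in this way the value describes the probe and not all transcripts of the gene.

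Growth and stress programmes gave few calls. None of 24 tested cell cycle genes, 25 nuclear oxidative phosphorylation genes, 17 ribosomal protein genes or 12 heat shock genes was called. In the cell cycle list Kif11, a spindle motor, differed by log2 0.65 (adjusted p = 0.0717) and Cdc20, an activator of mitotic exit, by 0.54 (adjusted p = 0.395). For respiration Ndufs3 differed by -0.36 (adjusted p = 0.0677) and Atp5a1 by -0.44 (adjusted p = 0.376). Ribosomal proteins Rps6 and Rpl4 differed by -0.26 and 0.18, and the chaperones Hsp90aa1 and Hsph1 by 0.50 and 0.24. Btg1, an antiproliferative gene of the cyclin D and p53 list, fell 2.19-fold, and by 0.99 on the log2 scale without ESdM 22 replicate 3, which ends the call. Pes1, needed for ribosome assembly, rose 2.58-fold as the 1 call among 19 ribosome biogenesis genes. Above 0 lay 17 of the 19, where 6873 of all 12814 tested genes did. The mitochondrially encoded ND4L rose 3.67-fold (log2 1.87, adjusted p = 0.0094) and was the 1 call of 8 such genes. Its call was lost within each chip, although the log2 differences there were 1.89 and 1.80.

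Of 22 glycolysis and hypoxia genes 1 was called lower, Ankrd37, and the median was -0.34. Below 0 lay 17 of the 22, where 5941 of all 12814 tested genes did. Ankrd37, a target of the hypoxia factor HIF1, fell 3.42-fold, from 7.33 to 7.71 in microglia to 5.17 to 5.94 in ESdM (adjusted p = 5.83e-07). Hk3, the myeloid hexokinase, chosen after its values were seen, fell 2.09-fold. Of 23 unfolded protein and amino acid response genes 2 were called lower, Trib3 by 2.44-fold and Ddit3, the stress factor CHOP, by 2.05-fold. The other 2 probes of Trib3, a pseudokinase induced by stress, gave -0.58 and -0.20. Its call was lost with the mean of probes (log2 -0.69) and within the chip with 1 microglia array (log2 -1.19). On ESdM 22 replicate 3 Ddit3 stood at 6.94, near the 7.05 to 7.52 of microglia, and at 5.96 to 6.15 on the other ESdM arrays. Its call was lost without microglia replicate 2 and without ESdM 22 replicate 1 or 2 (log2 -0.89 to -0.98). Of 21 TGF-beta signalling genes 1 was called lower, Smurf1, a ubiquitin ligase for SMAD proteins, by 2.60-fold. Tspo, a mitochondrial protein used as an imaging marker of activated microglia and chosen after its values were seen, fell 2.23-fold, by -0.90 in ESdM 20 and -1.41 in ESdM 22.

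Interferon-induced genes carried the largest falls, and are given only for scale. Of 82 tested genes on the 3 interferon-related lists 48 were called lower and none higher. Gbp2, a GTPase against intracellular pathogens, stood at 13.49, 13.71 and 13.55 in microglia, at 4.88, 5.14 and 5.32 in ESdM 20 and at 4.53, 4.85 and 4.50 in ESdM 22, and was detected on 4 of 6 ESdM arrays. Its brightest probe fell by 8.72 on the log2 scale, while the 2 other probes gave -4.02 and -0.74. Serpina3f and Cxcl9 fell at least 104-fold and at least 78.2-fold, and Gbp3 46.3-fold. Ccl5 stood at 10.79 to 11.49 in microglia and 4.86 to 5.12 in ESdM 20 (log2 -6.10 for that line) and was not detected on any ESdM 22 array. Several genes outside these lists, among them Cd274, Irf8, Ido1, Batf2 and Casp4, are also known to be inducible by interferons.

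**Figure D5:**
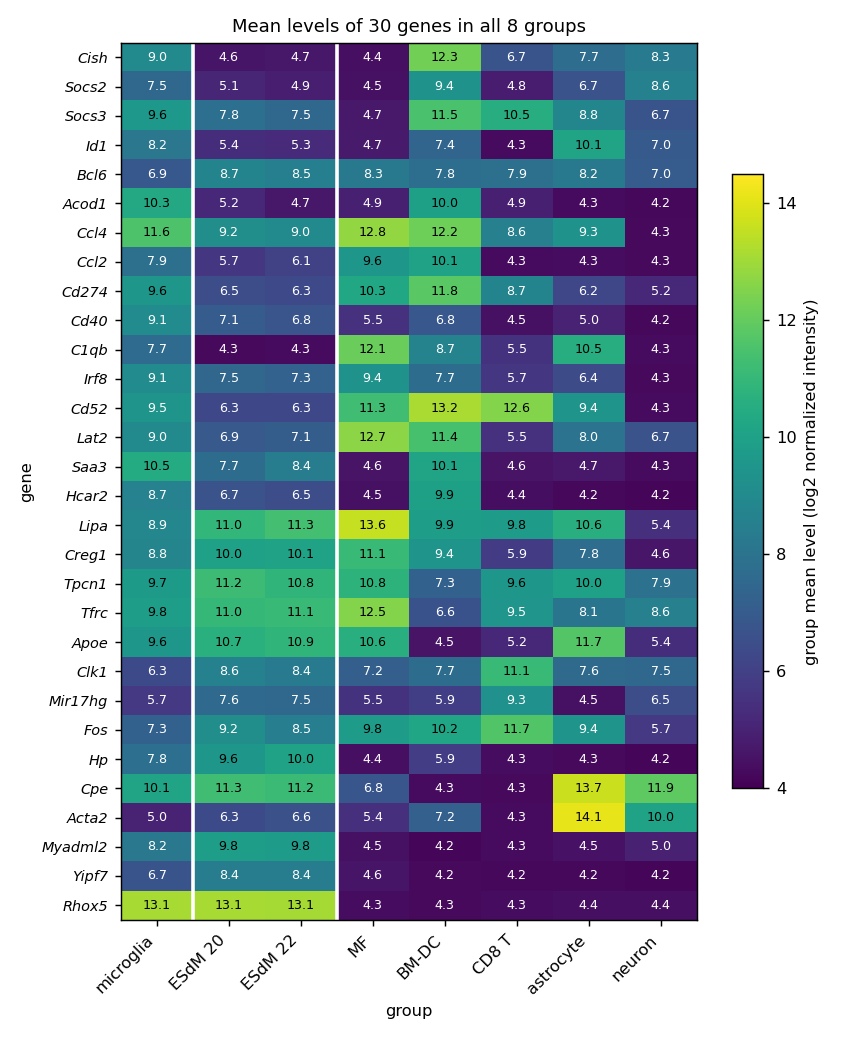
Mean level of 30 genes (rows) in all 8 groups of the series (columns), as log2 normalized intensity, with the value printed in each cell and white lines setting off microglia and the ESdM lines. Both ESdM lines are close in nearly all rows, Rhox5 is at 13.1 in microglia and ESdM and near the floor elsewhere, and the 5 other groups differ from row to row.

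Genes detected in 1 of the groups alone were few. There were 53 genes detected on all 3 microglia arrays and on no ESdM array (0.414%), of which 30 were called lower and 15 stand on the interferon lists. Besides those above, the largest bounds were at least 5.81-fold for Gbp5 and at least 5.55-fold for the interferon-related GTPase genes Gm12250 and Gm4951. In the other direction 15 genes (0.117%) were detected on all 6 ESdM arrays and on no microglia array, and 2 of them were called, Mmp10 and Col4a1. Col4a1, a basement membrane collagen, was at 5.33 to 5.71 in ESdM and at least 1.77-fold higher, a call lost with median scaling (log2 0.97). The next bounds were at least 1.58-fold for the cold-shock RNA-binding protein Rbm3 and between 1.37-fold and 1.47-fold for Hars, Plekha5, Apoc1, Guca2b and Hadha, all below the minimum fold.

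Some genes set microglia and ESdM together apart from the rest of the series, and a few of these still differed in level. The homeobox gene Rhox5, known from testis and epididymis, stood at 13.06 to 13.22 in microglia and 12.78 to 13.26 in ESdM, and at 4.42 or less in all other groups. Myadml2, at 8.08 to 8.26 in microglia and 9.69 to 9.95 in ESdM, rose 3.06-fold (adjusted p = 1e-13), and Yipf7, a Golgi protein, rose 3.23-fold (adjusted p = 2.24e-13), each against means of at most 4.95 and 4.59 elsewhere. The clone-named gene 2310002L09Rik rose 2.63-fold in the same manner. Tex101 and Amhr2, both genes of reproductive tissues, differed by 0.42 and 0.16 and were not called. Hoxa5 and Hoxa7, segment identity genes, differed by 0.29 and 0.40, and none of 8 tested Hox genes was called. The largest rise of all, Tmem273, a membrane protein, was from 5.83, 5.75 and 5.82 in microglia to 7.98 to 8.59 in ESdM (5.39-fold, adjusted p = 4.02e-10), with 1 of its 2 other probes called. Tmem273 was not particular to these groups, with means of 10.37 in MF and 7.58 in astrocytes. Srpk3, a muscle splicing kinase, rose 3.20-fold, to 6.72 on ESdM 22 replicate 3 and 7.64 to 7.79 on the 5 other ESdM arrays.

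Markers of other cell types were mostly absent or level in both groups. Of 16 astrocyte markers tested, 11 were detected on no microglia array and 9 on no ESdM array. The 1 called higher was Cpe, a prohormone protease, from 10.02 to 10.18 in microglia to 10.91 to 11.51 in ESdM (2.14-fold, adjusted p = 1.04e-06). The 1 called lower was Vim. Mean levels of that list were 5.28 to 5.34 in microglia, 5.37 to 5.43 in ESdM 20 and 5.32 to 5.35 in ESdM 22. Of 11 endothelial and mural genes Acta2 was higher and Ly6c1 lower. No call was made among 17 neuron, 6 oligodendrocyte, 7 fibroblast, 12 T cell, 4 B cell, 9 mast cell and erythroid and 9 haematopoietic progenitor genes. Among these Elavl4 and Ina, both neuronal genes, differed by 0.89 and 0.74, and their levels of at most 6.51 in ESdM were below the 8.08 and 8.82 of neurons. Of 13 blood-derived macrophage genes Hp was higher and Saa3 and Ifitm6 lower, Ifitm6 by 2.29-fold. The part of such cells in the results above was not tested.

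Few differences between the ESdM lines passed the test at this number of arrays. Between ESdM 22 and ESdM 20 no gene was called (0%) by limma, 3 genes had an adjusted p below 0.05 at any fold (0.0234%), and 527 passed 0.05 before adjustment. Values of the lines did not overlap for 12.9% of the genes. With 3 arrays per line such separation also arises often without a difference, so this share does not count genes that differ. Ffar4, a receptor for long-chain fatty acids, stood at 6.34, 6.32 and 6.61 in ESdM 20 and at 5.41, 5.37 and 5.54 in ESdM 22, with 5.60, 5.88 and 5.60 in microglia. Draxin, an axon guidance protein, was at 5.61 to 5.78 in ESdM 20, 6.28 to 6.47 in ESdM 22 and 4.56 to 4.85 in microglia, so both lines lay above microglia at this probe (2.45-fold, adjusted p = 1.63e-09), while its 2 other probes gave -0.17 and 0.28. Scgb1a1, a secretoglobin of airways, was detected in ESdM 20 alone, at 4.95 to 5.03. Among further genes with low p-values between lines, Ccl9, a chemokine, was at 9.25 to 9.29 in ESdM 20 and 9.75 to 9.91 in ESdM 22 (line difference 0.57, adjusted p = 0.507), and Il10ra, the interleukin 10 receptor, was lower in ESdM 22, at 5.19 to 5.59 against 6.02 to 6.25. Against the same microglia arrays, 89 genes were called higher and 186 lower in ESdM 20, and 64 higher and 199 lower in ESdM 22. The lines share the microglia arrays, so these counts are not independent. Of the genes called over both lines, 53 of 77 higher and 172 of 188 lower genes passed the minimum fold in each line.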

How the data were processed

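The authors deposited a non-normalized table of bead array intensity with a detection p-value for each probe and array, and a separate value table. Software versions and genome build are not given in the sources used here. The authors' deposited value table holds intensity that matched a quantile normalization of the same arrays without background subtraction, and it served as an alternative. Control probes were not used here.

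Intensities were background corrected and quantile normalized with neqc (offset 16) in limma 3.58.1 under R 4.3.3, over all 27 arrays, on the log2 scale. Of 45281 probes, 34885 carried 1 gene symbol, 18 several and 10378 none. Probes were kept where 3 or more arrays gave a detection p under 0.05 (25001 did, 4162 of them unnamed), and the brightest probe stood for a gene. One linear model over the 8 groups (19 residual degrees of freedom) gave moderated tests with Benjamini-Hochberg adjustment over 12814 genes. Precision is limited by 3 arrays per group. A gene undetected on all arrays of a side is given as "at least" a fold against the lowest detected signal. Probes of near-identical family members may share signal.

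The members and the 53 gene lists were chosen with earlier results of these data known. Named genes are the 15 largest rises and the 15 largest falls outside the interferon lists among called genes without overlap, clone names left out. They also include the 5 largest falls within those lists, up to 4 called members per direction of every other list (or its 2 largest differences), 5 genes per direction between lines, and the 8 largest bounds per side. Any other gene named was chosen after its values were seen. Calculations were tested on simulated data. Alternatives covered scaling, background, filter, probe rule, chip, replicate number and single arrays. Same-numbered arrays did not deviate together (correlations -0.13 to 0.11 over 9 pairs), so numbers were not used as pairs.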

Additional observations from a re-analysis of the deposited data

Results flagged for a closer look

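Among all genes tested, 3 differed between the lines at an adjusted p below 0.05 in limma's test of ESdM 22 minus ESdM 20, each below the minimum fold. Ffar4 was lower in ESdM 22 by a log2 difference of -0.98 (adjusted p = 0.00328), and its 3 arrays per line did not overlap. Scgb1a1 differed by -0.61 (adjusted p = 0.0183) and was detected on all 3 arrays of ESdM 20 and on none of ESdM 22. Draxin was higher in ESdM 22 by 0.71 (adjusted p = 0.0247), again without overlap.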

How the results depend on the processing

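Counts of genes called moved most with background correction and the minimum fold. Higher and lower calls numbered 77 and 188, and were 814 and 750 without a minimum fold, and 20 and 85 both without background correction and in the authors' deposited value table, which lowers the share of higher calls among all calls. With the mean of all probes 48 were called higher, and within the chip with 1 microglia array 49. Leaving out single arrays gave 68 to 83 higher and 181 to 196 lower. Between lines the count of 0 became 3 without a minimum fold, 1 with median scaling, with the 9 arrays alone and with chip as a block, and 0 to 1 when single arrays were left out. With the replicate number as a block, 81 were higher and 188 lower, and no call of a named gene was lost. Signs turned for 3 uncalled genes: Atp5a1 with the mean of probes (0.17), Mag within the chip with 1 microglia array (0.026), and Uty there (0.016) and when single arrays were left out (-0.129 to 0.0428, above 0 without microglia replicate 3). Of 112 called named genes, 46 kept their call under every alternative and 66 lost it under at least 1, most often without background correction (53), within the chip with 1 microglia array (31) and with the mean of probes (18). The causes were not tested. Dim genes are limited by signal near background.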

Other observations

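Probes without a gene symbol were not used in the gene counts. Of 4162 such probes past the detection filter, 27 were called higher and 30 lower in ESdM. Of 39 genes called higher that had further probes, 10 had another probe called the same way, and of 96 such genes called lower, 47 had.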
